A study of Mus musculus with 12 samples.

Results

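The unfolded protein response genes described here are 35 genes of the endoplasmic reticulum (ER) stress pathway, chosen by name: the sensors PERK, IRE1 and ATF6, the transcription factors they act through, and well-known target genes. A gene was taken where the platform annotation named it, and it alone, for a probe set. This held for 34 of the 35 genes, out of 21408 genes measured in all, with 1 probe set each, and Pdia4 is not analysed here. The 34 genes were placed by textbook role into a PERK arm (9 genes), an IRE1 arm (9), an ATF6 arm (11) and a group of shared targets (5), although many targets answer to more than 1 sensor. Expression was measured by array in the small intestine of wild-type BALB/c mice, all of which had been irradiated over the whole body and given bone marrow cells and T cells from C57BL/6N donors, a transplant across strains that serves as a model of acute graft-versus-host disease. TUDCA mice received 200 mg/kg of tauroursodeoxycholic acid (TUDCA) each day by intraperitoneal injection, and the vehicle mice an equal volume of 200 µl. TUDCA is a bile acid conjugated to taurine that is used in the laboratory as a chemical chaperone to lower ER stress. Tissue was taken at day 14 after the transplant from 6 mice of each group, and the labels give neither age nor sex. No group without a transplant was analysed here, so every comparison is between TUDCA and vehicle in transplanted mice.

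Secretory and membrane proteins fold inside the ER with the help of chaperones, oxidising enzymes and lectins. When unfolded proteins build up, 3 sensors in the ER membrane respond. PERK phosphorylates a translation initiation factor, which slows protein synthesis and favours translation of ATF4, an activator of amino acid metabolism genes and, with time, of the pro-apoptotic factor CHOP. IRE1 splices the Xbp1 messenger RNA so that it encodes an active transcription factor for ER expansion and for ER-associated degradation, the removal of misfolded proteins to the cytosol. ATF6 moves to the Golgi, is cut there, and its released part switches on chaperone genes. In the intestine, goblet and Paneth cells carry a heavy secretory load and depend on this response, and IRE1 has a second form, encoded by Ern2, that is largely restricted to mucus-secreting epithelium. Phosphorylation of PERK, cleavage of ATF6 and splicing of Xbp1 are not seen by a gene-level array, which reads only the amount of each messenger RNA.

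All values are log2 expression values as deposited, and differences are TUDCA minus vehicle on the log2 scale. The 12 arrays correlated at 0.984 to 0.993 across probe sets. The median level over the 12 arrays was 11.91 for 12 enterocyte markers and 11.41 for 11 goblet markers, against 5.93 for all probe sets. The enterocyte markers Fabp1 (5.34) and Lct (5.26) lay below that last value. The mean log2 value of Fabp2 was 13.11 in TUDCA mice and 13.27 in vehicle mice. That of Muc2 was 13.05 in TUDCA mice and 12.86 in vehicle mice. A description field of the labels names CXCL12-abundant reticular cells, whereas the tissue and source fields name small intestine, which was followed. The median level of 8 markers of such reticular cells was 7.015. Sample numbers in the labels fall into a high range, with TUDCA replicates 3 to 6 and vehicle replicates 5 and 6, and a low range, with TUDCA replicates 1 and 2 and vehicle replicates 1 to 4. What the ranges stand for is not given, and each difference was fitted with the range as a term. Because whole tissue was used, fewer cells of a type and less RNA per cell cannot be told apart.

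None of the 34 genes passed the test, which was limma with Benjamini-Hochberg adjustment over 23991 probe sets and a threshold of an adjusted p of 0.05. Over all probe sets, 605 passed (2.52%), of which 241 (1%) were higher and 364 (1.52%) lower in TUDCA mice. The 34 differences ranged from -0.25 (Chac1) to 0.33 (Sec61b), with a median of -0.0052 against 0.010 over all probe sets, and 16 lay above 0 and 18 below. At an unadjusted p under 0.05 there were 4 of the 34 (11.8%), against 14.1% of all probe sets, so the share of members was no larger than the background. These were Sec61b and Pdia6, with positive differences (2 genes, against 7.24% of all probe sets), and Edem1 and Ern1, with negative ones (2 genes, against 6.84%). In all 34 genes the values of the groups overlapped, while 1.98% of all probe sets had groups that did not overlap. The 95% confidence interval of the difference lay within 0.5 of 0 for 31 of the 34 genes, and within 1 for all 34. The exceptions at 0.5 were Sec61b, Ern2 and Dnajb9, whose upper limits were 0.57, 0.58 and 0.51. By arm, the median difference was -0.0025 in the PERK arm (4 genes above 0 and 5 below), -0.054 in the IRE1 arm (4 and 5), 0.054 in the ATF6 arm (8 and 3) and -0.046 in the shared targets (0 and 5). Without vehicle replicate 5, described further on, 2 members of the ATF6 arm, Hspa5 and Pdia6, passed the test as higher in TUDCA mice. That array was singled out by the values of the members themselves, so these 2 calls are a description.

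**Figure D1:**
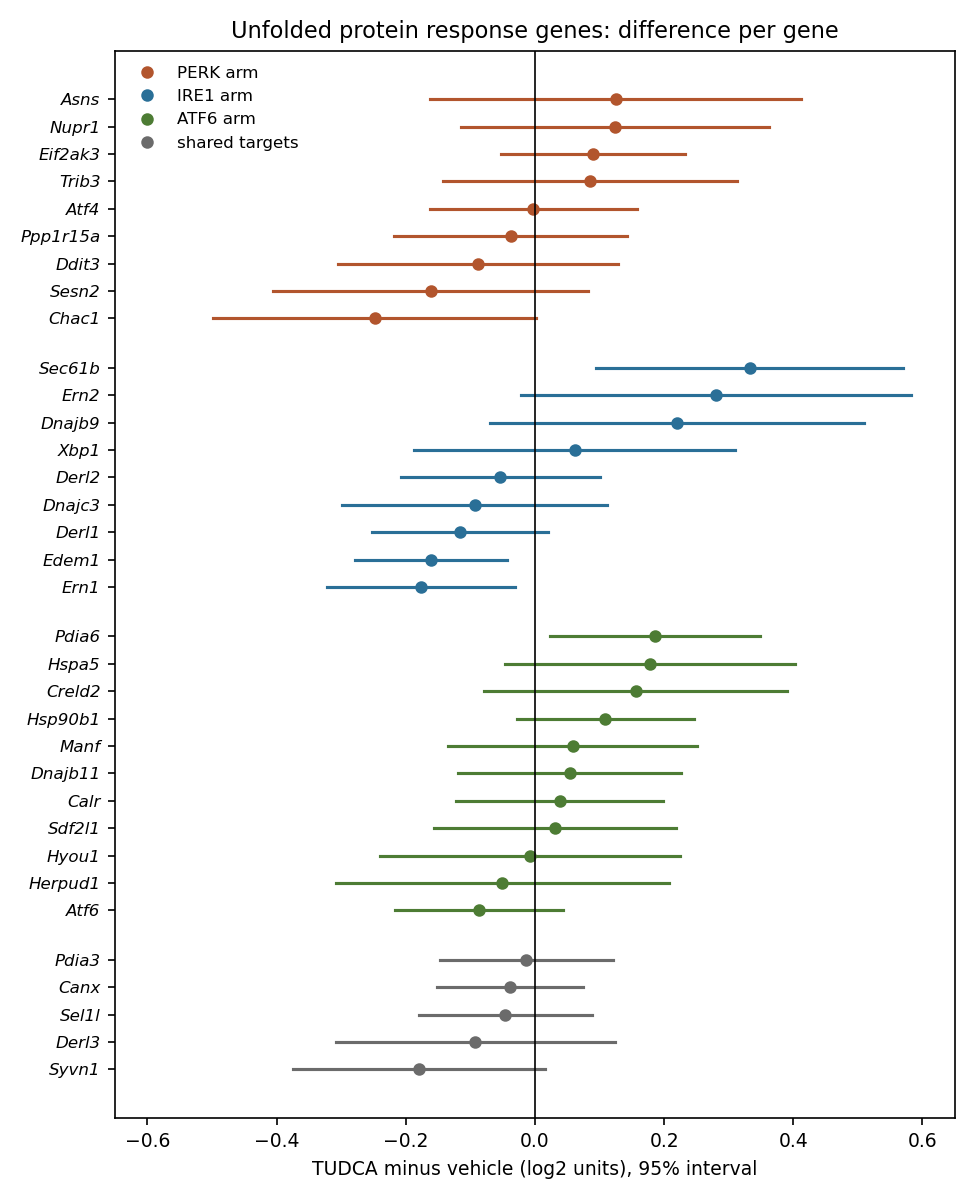
Difference between TUDCA and vehicle for each of the 34 genes, in log2 units on the horizontal axis, by arm, with bars for the 95% confidence interval from the limma fit on 12 arrays. The points lie between -0.25 and 0.33, and none of the 34 genes passed the test after adjustment.

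None of the sensor genes passed the test, with differences from -0.18 (Ern1) to 0.28 (Ern2). The confidence interval of the Ern2 difference ran from -0.02 to 0.58, so its transcript level was not shown to be alike in the groups. Eif2ak3, which encodes PERK, ranged over 8.15, 8.29 and 8.45 (lowest, median and highest log2 value) in TUDCA mice and over 8.09, 8.26 and 8.30 in vehicle mice. The groups overlapped over most of their range, and the difference was 0.09 ± 0.07 (SE; limma adjusted p = 0.613). Ern1, which encodes the widely expressed IRE1 alpha, ranged over 8.32, 8.54 and 8.58 in TUDCA mice and over 8.55, 8.68 and 8.73 in vehicle mice. The lowest vehicle array lay just under the highest TUDCA array. The difference was -0.18 ± 0.07 (SE; unadjusted p = 0.021, limma adjusted p = 0.237), with -0.12 in the high range and -0.23 in the low range. Ern2, which encodes the epithelial IRE1 beta, ranged over 7.79, 8.28 and 8.43 in TUDCA mice and over 7.59, 8.03 and 8.28 in vehicle mice. Its difference of 0.28 ± 0.14 (SE; limma adjusted p = 0.397) had the opposite sign from that of Ern1. Atf6 ranged over 8.92, 9.03 and 9.09 in TUDCA mice and over 9.01, 9.11 and 9.25 in vehicle mice, and the difference was -0.09 ± 0.06 (SE; limma adjusted p = 0.585).

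In the PERK arm none of 9 genes passed the test. Atf4, the transcription factor of this arm, averaged 8.43 ± 0.13 in TUDCA mice and 8.45 ± 0.11 in vehicle mice (SD, n = 6 each). It ranged over 8.21, 8.44 and 8.60 in TUDCA mice and over 8.36, 8.39 and 8.65 in vehicle mice. The 95% interval of its difference ran from -0.16 to 0.16. Ddit3, which encodes CHOP, ranged over 6.79, 7.20 and 7.30 in TUDCA mice and over 6.96, 7.20 and 7.44 in vehicle mice, so that the medians were alike. Its difference was -0.09 ± 0.10 (SE; limma adjusted p = 0.772), with an interval from -0.30 to 0.13. Chac1, a glutathione-degrading enzyme induced through ATF4, had the largest difference of the arm. It ranged over 5.77, 6.05 and 6.34 in TUDCA mice and over 5.91, 6.32 and 6.45 in vehicle mice, a difference of -0.25 ± 0.12 (SE; unadjusted p = 0.052, limma adjusted p = 0.361). Sesn2, a stress-induced inhibitor of mTORC1 signalling, ranged over 5.88, 6.21 and 6.49 in TUDCA mice and over 6.13, 6.33 and 6.63 in vehicle mice, and the difference was -0.16 ± 0.11 (SE; limma adjusted p = 0.587). Chac1 and Sesn2 had negative differences in both ranges: -0.28 and -0.22 in the high range, and -0.21 and -0.10 in the low range. The other targets did not share a direction. Ppp1r15a, the phosphatase subunit GADD34 that restores translation, had a difference of -0.04. Positive differences were measured for Trib3, a pseudokinase that restrains ATF4 (0.09), Asns, asparagine synthetase (0.13), and Nupr1, a stress-induced chromatin protein (0.12), with limma adjusted p-values of 0.691 or more.

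In the IRE1 arm none of 9 genes passed the test either, and the targets of XBP1 did not move as a block. Xbp1 itself ranged over 9.55, 9.69 and 9.93 in TUDCA mice and over 9.45, 9.49 and 10.10 in vehicle mice. The highest of the 12 arrays was a vehicle array, replicate 5, and the other 5 vehicle arrays had a median below the lowest TUDCA array. The difference was 0.06 ± 0.12 (SE; limma adjusted p = 0.874), and 0.23 ± 0.08 without that array (adjusted p = 0.176). Sec61b, a subunit of the channel through which proteins enter the ER, ranged over 5.66, 5.83 and 6.11 in TUDCA mice and over 5.23, 5.62 and 5.76 in vehicle mice. Its difference was 0.33 ± 0.11 (SE; unadjusted p = 0.010, limma adjusted p = 0.164), with 0.35 in the high range and 0.31 in the low range. Sec61b, Trib3 and Derl3 were the 3 members whose level was below the median of all probe sets. Edem1, which hands misfolded glycoproteins to degradation, ranged over 9.68, 9.72 and 9.84 in TUDCA mice and over 9.81, 9.92 and 9.98 in vehicle mice, so that only the edges of the groups overlapped. Its difference was -0.16 ± 0.06 (SE; unadjusted p = 0.011, limma adjusted p = 0.175), with -0.21 in the high range and -0.12 in the low range. Derl1 and Derl2, which help to pull proteins out of the ER, had differences of -0.12 and -0.05, and both were below 0 in both ranges. Dnajb9 (ERdj4), a co-chaperone of BiP, had a difference of 0.22, with -0.04 in the high range and 0.48 in the low range. Dnajc3 (p58IPK), a co-chaperone of BiP and an inhibitor of PERK, had one of -0.09, with -0.35 in the high range and 0.17 in the low range, and 0.046 without vehicle replicate 5.

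**Figure D2:**
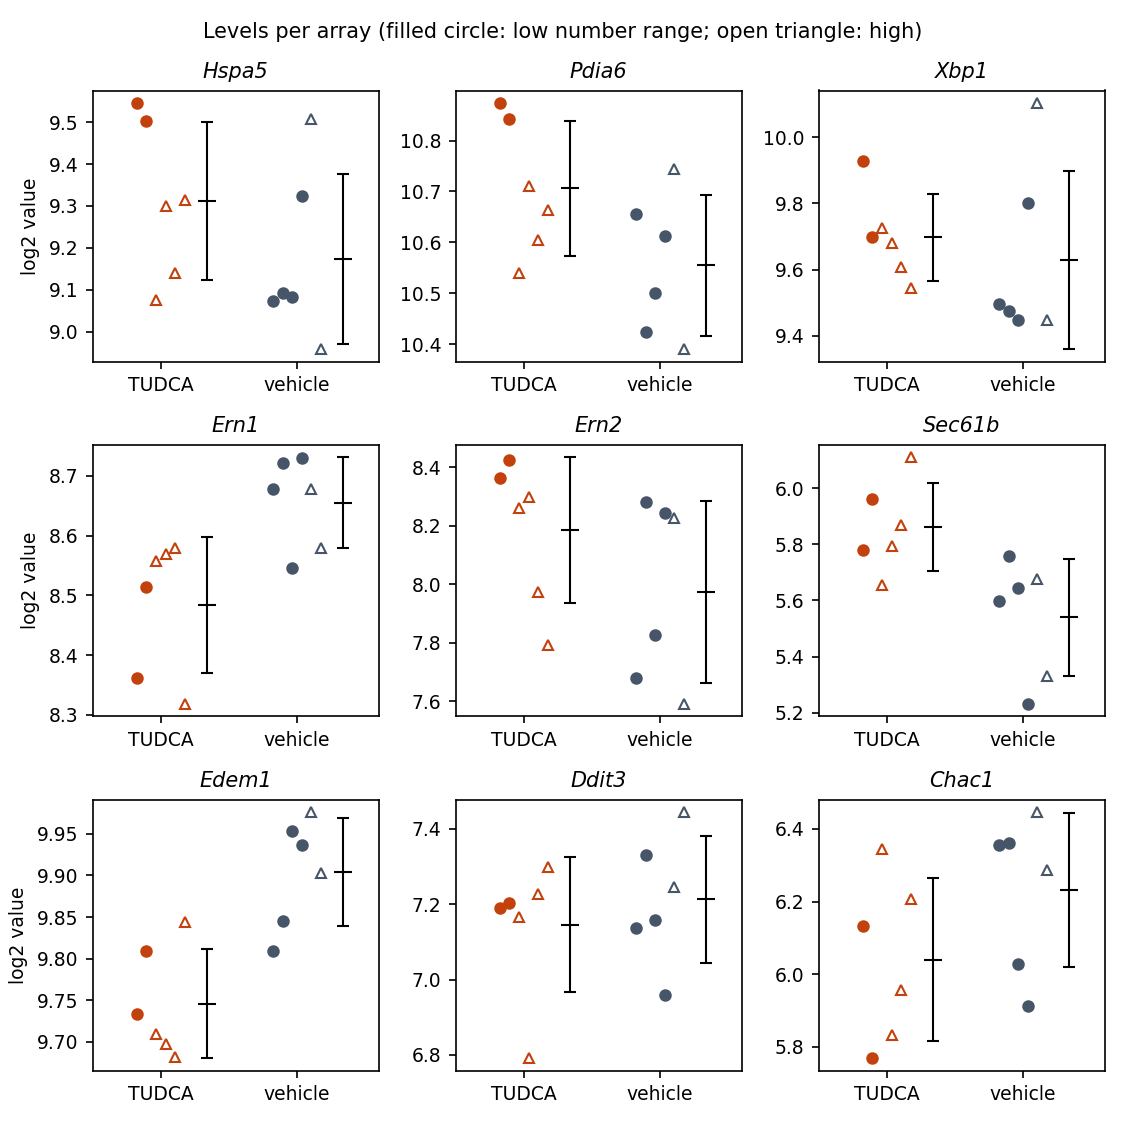
Log2 values of 9 genes on each array, TUDCA left of vehicle, with filled circles for the low number range, open triangles for the high number range and a bar for mean ± SD of 6 arrays. In each of the 9 genes the groups overlap. For Hspa5, Pdia6, Xbp1, Edem1 and Chac1 the highest vehicle value is that of replicate 5, an open triangle.

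The ATF6 arm is best known through a short DNA element, the ER stress response element (ERSE), which is bound by ATF6 together with the factor NF-Y. Its textbook letters, CCAAT, 9 bases of any kind and CCACG, were searched on both strands in windows of 300 bases around gene starts, from RefSeq for GRCm38.p6, a C57BL/6J genome, whereas the recipients were BALB/c. Of 27025 genes, 37 (0.137%) held an exact match, and of the 29 members with a window 9 did. The variant ERSE-II, ATTGG and CCACG with 1 base of any kind between them, was held by 12 genes (0.0444%), 2 of them members, Herpud1 and Dnajb11. The UPRE core TGACGTGG was found in 193 genes (0.714%) and in none of the 29, and the amino acid response element TGATGNAAT in 293 genes (1.08%) and in 1 member, Nupr1. Ern2, Derl1, Atf6, Hyou1 and Manf had no window. The stretches of Hspa5, Pdia6, Hsp90b1, Creld2, Calr, Syvn1 and Herpud1 follow, in the direction of the gene. The element is in capitals, with 10 bases on each side. Stretches of the remaining members with an element are not printed. The fixed letters are shared because the search required them, and the 9 free bases of the ERSE differ from gene to gene. Elements that begin with CGTGG lie on the opposite strand.
Hspa5, chr2:34772015-34772053, plus strand: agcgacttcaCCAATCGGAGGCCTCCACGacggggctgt
Pdia6, chr12:17266481-17266519, plus strand: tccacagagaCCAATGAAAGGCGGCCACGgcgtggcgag
Hsp90b1, chr10:86705628-86705666, minus strand: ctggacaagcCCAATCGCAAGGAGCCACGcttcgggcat
Hsp90b1, chr10:86705523-86705561, minus strand: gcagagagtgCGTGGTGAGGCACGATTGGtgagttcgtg
Creld2, chr15:88819510-88819548, plus strand: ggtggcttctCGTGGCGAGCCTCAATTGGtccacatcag
Calr, chr8:84847065-84847103, minus strand: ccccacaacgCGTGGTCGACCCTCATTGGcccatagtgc
Syvn1, chr19:6046522-6046560, plus strand: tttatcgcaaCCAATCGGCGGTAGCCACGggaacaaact
Herpud1 (ERSE-II), chr8:94386367-94386397, plus strand: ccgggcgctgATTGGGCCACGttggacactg
The element of Hspa5 lay 65 to 47 bases before the gene start, and that of Pdia6 98 to 80 bases before it. Hsp90b1 held 2, at 212 to 194 and 107 to 89 bases. The other members with an ERSE were Dnajc3, Canx and Derl3. A match is only a match of letters, and binding was not measured.

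In the ATF6 arm 8 of 11 differences (72.7%) lay above 0, against 53.3% of all probe sets, and none passed the test. Hspa5, which encodes BiP, the main ER chaperone and the keeper of all 3 sensors, had log2 values of 9.55, 9.50, 9.08, 9.30, 9.14 and 9.31 in TUDCA replicates 1 to 6, against 9.07, 9.09, 9.08, 9.32, 9.51 and 8.96 in vehicle replicates 1 to 6. The high TUDCA values came from replicates 1 and 2, and the high vehicle value from replicate 5. Means were 9.31 ± 0.19 in TUDCA mice and 9.17 ± 0.20 in vehicle mice (SD, n = 6 each), and the difference was 0.18 ± 0.10 (SE; 95% interval -0.05 to 0.40; limma adjusted p = 0.490). It was -0.03 in the high range and 0.38 in the low range. Pdia6, a disulfide isomerase, had values of 10.87, 10.84, 10.54, 10.71, 10.60 and 10.66 in TUDCA replicates 1 to 6, against 10.66, 10.42, 10.50, 10.61, 10.75 and 10.39 in vehicle replicates 1 to 6. The same 3 arrays were high as for Hspa5. Its difference was 0.19 ± 0.08 (SE; unadjusted p = 0.028, limma adjusted p = 0.275), with 0.06 in the high range and 0.31 in the low range. Hsp90b1, the ER form of the HSP90 chaperone, ranged over 11.68, 11.81 and 11.91 in TUDCA mice and over 11.52, 11.68 and 11.86 in vehicle mice, a difference of 0.11 ± 0.06 (SE; limma adjusted p = 0.489).
The remaining 7 members had differences from -0.05 to 0.16. Creld2, an ER stress-induced secreted protein, had the largest of these differences, 0.16. Manf, a secreted ER stress factor, had 0.06, Dnajb11, a co-chaperone of BiP, 0.05, Calr, the lectin chaperone calreticulin, 0.04, and Sdf2l1, a partner of BiP, 0.03. Hyou1, a nucleotide exchange factor for BiP, had a difference of -0.0079 and Herpud1, a scaffold of the degradation complex, one of -0.05. These 7 genes had limma adjusted p-values of 0.583 or more. Each of the 7 lay above 0 in the low range and below 0 in the high range. The differences in the low and high range were 0.33 and -0.02 for Creld2, 0.27 and -0.28 for Hyou1, and 0.26 and -0.15 for Manf.

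All 5 shared targets had negative differences, and none passed the test. Syvn1, the ubiquitin ligase HRD1 at the centre of ER-associated degradation, ranged over 7.79, 8.06 and 8.28 in TUDCA mice and over 8.09, 8.25 and 8.38 in vehicle mice. The difference was -0.18 ± 0.09 (SE; limma adjusted p = 0.401), with -0.39 in the high range and 0.03 in the low range. Derl3, the secretory cell member of the Derlin family, ranged over 5.08, 5.16 and 5.36 in TUDCA mice and over 4.98, 5.23 and 5.57 in vehicle mice (limma adjusted p = 0.754). Sel1l, the partner of HRD1, ranged over 9.20, 9.35 and 9.46 in TUDCA mice and over 9.32, 9.39 and 9.53 in vehicle mice (limma adjusted p = 0.809). The glycoprotein folding genes Canx (calnexin) and Pdia3 (ERp57) had differences of -0.04 and -0.01, and their values lay from 11.85 to 12.06 and 11.26 to 11.51 in TUDCA mice, against 11.97 to 12.10 and 11.19 to 11.45 in vehicle mice.

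The arm means varied more between arrays of a group than between groups. The mean of the ATF6 arm, taken as the log2 value minus the mean of that gene over 12 arrays, was 0.15, 0.19, -0.15, 0.01, -0.07 and -0.02 in TUDCA replicates 1 to 6, against 0.04, -0.15, -0.10, 0.03, 0.18 and -0.12 in vehicle replicates 1 to 6. TUDCA replicates 1 and 2 exceeded the other TUDCA arrays in 9 of the 11 genes, and TUDCA replicate 3 was the lowest TUDCA array in 10 of the 11. Vehicle replicate 5 stood apart: it was the highest vehicle array for 19 of the 34 members (55.9%), against 18.1% of all probe sets, and for 8 of 11 in the ATF6 arm, 4 of 5 shared targets, 4 of 9 in the IRE1 arm and 3 of 9 in the PERK arm. Among the 11 members with an ERSE or ERSE-II, 10 were highest of the vehicle arrays there, against 7 of the 18 members whose window held neither. The array was picked out by these same values, so the split is a description. Cell type markers of this array also stood apart. It had the highest vehicle value for 6 of 7 Paneth cell genes, whose centred mean was 0.61 on this array, against -0.10 to 0.13 over the TUDCA arrays and -0.19 to 0.05 over the other vehicle arrays. It also had the lowest vehicle value for all 6 smooth muscle genes, with a centred mean of -0.50, against -0.29 to 0.16 over the TUDCA arrays and 0.22 to 0.30 over the other vehicle arrays. The part of these cell type shifts in the levels of the members was not tested.

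**Figure D3:**
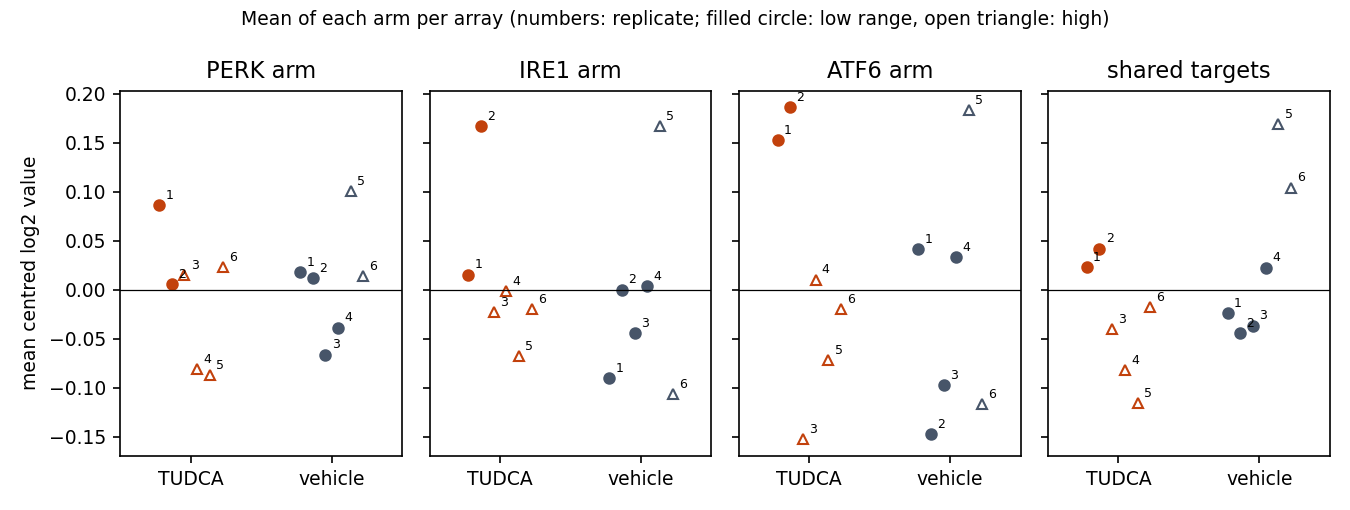
Mean over the genes of each arm of the log2 value minus the mean of that gene over 12 arrays, for each TUDCA array (left) and vehicle array (right), with replicate numbers. In the ATF6 arm TUDCA replicates 1 and 2 and vehicle replicate 5 lie highest, at 0.15, 0.19 and 0.18, and TUDCA replicate 3 and vehicle replicate 2 lowest.

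Leaving out vehicle replicate 5, 2 of the 34 genes passed the test as higher in TUDCA mice and 0 as lower, against 1.16% and 1.69% of all probe sets. This array was singled out by the high values of these same members, so many of their differences rise without it. The counts without it are a description and not separate evidence. Hspa5 then differed by 0.33 ± 0.08 (SE; limma adjusted p = 0.032) and Pdia6 by 0.28 ± 0.06 (SE; adjusted p = 0.028). At an unadjusted p under 0.05 there were 13 of 34 genes (38.2%), 11 of them with positive differences and 2 with negative ones, against 7.84% and 7.05% of all probe sets. These 11 included the chaperones Hsp90b1, Dnajb9, Dnajb11 and Creld2, together with Xbp1, Ern2 (0.43, adjusted p = 0.125) and Sec61b (0.39, adjusted p = 0.120), and the PERK arm genes Asns (0.28, adjusted p = 0.306) and Nupr1 (0.24, adjusted p = 0.325). Ern1 and Edem1 were those with negative differences. The median of the ATF6 arm was 0.16 without this array, and that of the PERK arm -0.007. With all arrays the median of the ATF6 arm was 0.054. It was 0.019 without TUDCA replicate 1 and 0.015 without TUDCA replicate 2, so it moved in either direction with the array left out. Omission of any single array other than vehicle replicate 5 left 0 of 34 genes past the threshold. Hspa5, for example, had an adjusted p of 0.777 without vehicle replicate 6.

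In the low number range 25 of 34 genes (73.5%) had a difference above 0, against 52.4% of all probe sets. In the high range 8 did (23.5%), against 52.6%. The median difference was -0.10 in the high range and 0.14 in the low range, and it was -0.07 in the high range and 0.19 in the low range for the ATF6 arm. Fitted on the low range alone, none of the 34 genes passed the test, against 2.08% of all probe sets, and the smallest adjusted p was 0.0845, for Hspa5. On the high range alone none passed either, against 0.0375%. The difference was larger in the low range for 29 of 34 genes (85.3%), against 49.5% of all probe sets, and for 11 of 11 in the ATF6 arm and 5 of 5 shared targets. This list was chosen with such a pattern already known, so the counts are a description. Tested gene by gene as an interaction of treatment and range, none of the 34 genes and none of all probe sets passed (0%), and 7 members (20.6%) had an unadjusted p under 0.05, against 7.68% of all probe sets. A single array moved that count: it was 3 without vehicle replicate 5, where the median high range minus low range difference was -0.088 against -0.204 with all arrays, and 12 without vehicle replicate 6. Hyou1 had a high range minus low range difference of -0.55 (-0.28 in the high range and 0.27 in the low range; adjusted p = 0.516 in limma). For Dnajc3 it was -0.52 (-0.35 in the high range and 0.17 in the low range; limma adjusted p = 0.516). The other 5 were Syvn1 (-0.42), Derl3 (-0.42), Manf (-0.41), Hspa5 (-0.41) and Calr (-0.29). The high range holds 2 vehicle arrays, of which replicate 5 is the one that stood apart. With replicate 6 as the only vehicle array of that range, 15 of 34 differences were above 0 and the median was -0.03, and with replicate 5 as the only one 3 of 34 were above 0 and the median was -0.18. Genes that kept 1 sign in both ranges were Eif2ak3, Nupr1, Ern2, Sec61b, Hsp90b1 and Pdia6, above 0, and Chac1, Sesn2, Ern1, Edem1, Derl1, Derl2 and Atf6, below 0.

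**Figure D4:**
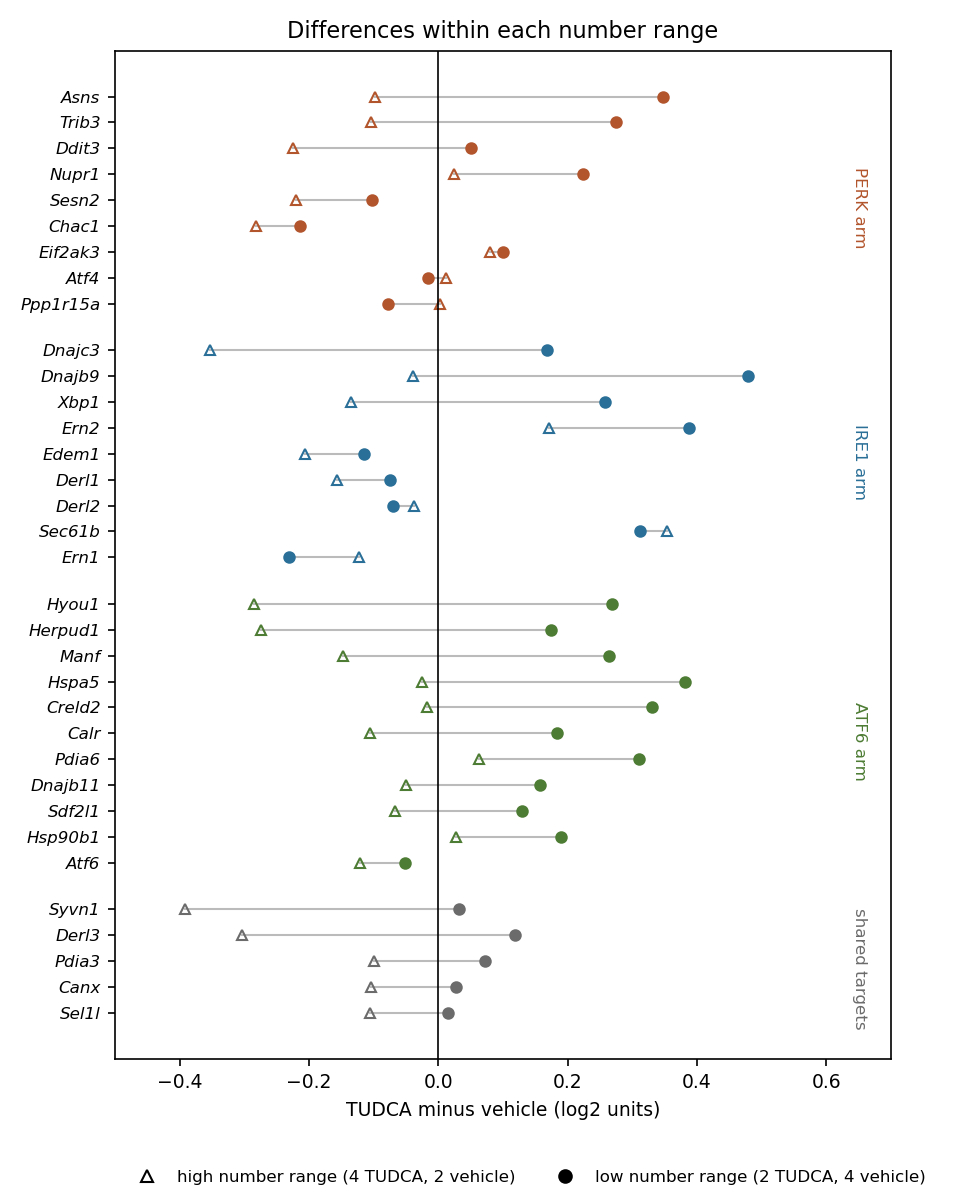
TUDCA minus vehicle difference of each gene in log2 units, with open triangles for the high number range and filled circles for the low number range, grouped by arm. In the ATF6 arm the low range lies above the high range for 11 of 11 genes, and over all arms for 29 of 34.

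Other genes of the pathway were read from the same fit. Of 126 measured, 5 were higher (3.97%) and 2 lower (1.59%) in TUDCA mice past the threshold, against 1% and 1.52% of all probe sets, so the share that fell was close to the background. The median difference was 0.045, with 0.006 in the high range and 0.098 in the low range. With 1 array left out, 1 to 11 were higher and 0 to 2 lower. There was 1 higher without TUDCA replicate 1 or 2 or vehicle replicate 1, 2 or 3, 2 without vehicle replicate 6, and 11 without vehicle replicate 5. The share of all probe sets called in either direction moved too, from 1.01% without TUDCA replicate 1 to 2.96% without TUDCA replicate 3. It was 1.23% without TUDCA replicate 2, 1.61% without vehicle replicate 6 and 2.85% without vehicle replicate 5. Agr2, a disulfide isomerase needed for mucin production in goblet cells, rose by 0.56 ± 0.13 (SE; limma adjusted p = 0.034). It ranged over 11.23, 11.61 and 12.05 in TUDCA mice and over 10.69, 11.22 and 11.48 in vehicle mice. Agr3, its close relative, rose by 0.31 ± 0.07 (SE; limma adjusted p = 0.029) at levels near the lower end of the array, 3.50 to 3.89 in TUDCA mice and 3.30 to 3.54 in vehicle mice.
The paralogous ER oxidases, which pass disulfide bonds to the isomerases, changed in opposite directions. Ero1a, the hypoxia- and CHOP-inducible form, rose by 0.31 ± 0.07 (SE; limma adjusted p = 0.040), with values from 9.86 to 10.18 in TUDCA mice and from 9.44 to 9.82 in vehicle mice, which did not overlap. Ero1b, the form induced through the unfolded protein response in secretory cells, fell by 0.32 (SE 0.08; limma adjusted p = 0.041), with values from 6.38 to 6.73 in TUDCA mice and from 6.56 to 6.96 in vehicle mice.
Of the genes of ER stress-linked cell death, Tnfrsf10b, the death receptor DR5 that CHOP can induce, rose by 0.47 ± 0.08 (SE; limma adjusted p = 0.0057), with values from 6.66 to 7.15 in TUDCA mice and from 6.18 to 6.65 in vehicle mice. Tmbim6, the BAX inhibitor 1 of the ER membrane that restrains IRE1, fell by 0.24 (SE 0.05; limma adjusted p = 0.024), with values from 11.02 to 11.18 in TUDCA mice and from 11.22 to 11.43 in vehicle mice. Neither pair of groups overlapped. Phgdh, the first enzyme of serine synthesis and a target of ATF4, rose by 0.48 ± 0.11 (SE; limma adjusted p = 0.034), with values from 5.67 to 6.39 in TUDCA mice and from 5.49 to 5.85 in vehicle mice.
Tnfrsf10b passed the test whichever 1 of the 12 arrays was left out (adjusted p up to 0.037). The call for Tmbim6 ended without TUDCA replicate 1, 2 or 5 or vehicle replicate 6 (adjusted p up to 0.106), and that for Agr3 without TUDCA replicate 1 or 2 or vehicle replicate 1, 2, 3 or 6 (up to 0.130). The calls held in only 3 of the 12 omissions for Agr2 (TUDCA replicate 3, vehicle replicates 4 and 5), 3 for Ero1a (TUDCA replicates 3 and 4, vehicle replicate 5) and 3 for Phgdh (TUDCA replicates 3 and 5, vehicle replicate 6). For Ero1b they held in 2 (TUDCA replicate 3, vehicle replicate 1), with adjusted p-values up to 0.148, 0.177, 0.157 and 0.139 for the 4 genes in the order given. When the fit left out the number range, the calls for Tnfrsf10b (adjusted p = 0.0631), Phgdh (0.0698), Agr2 (0.112), Ero1b (0.156) and Agr3 (0.173) ended, and within the high range alone none of the 7 passed.

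By role, 1 of 29 further ATF4 and amino acid genes rose, and none of 6 eIF2 alpha kinase and phosphatase genes passed the test. Over all probe sets, 1% passed as higher and 1.52% as lower, which is the background for each count by role. None of 30 further secretory pathway targets of XBP1 passed. A difference above 0 was measured for 23 of them (76.7%, median 0.09), against 53.3% of all probe sets. In the low range 25 of the 30 lay above 0 (83.3%, median 0.17), against 52.4% of all probe sets. In the high range 13 did (43.3%, median -0.01), against 52.6%. Of 8 ATF6 family genes none passed, and of 18 further degradation genes none did, with 12 below 0 (median -0.07). The share of these degradation genes above 0 was 33.3%, against the same 53.3%. Folding enzymes had 3 higher and 1 lower of 27 (median 0.12), and ER stress apoptosis genes 2 higher and 1 lower of 9, with Ero1a counted in both. Without vehicle replicate 5, 11 of the 126 genes were higher and 1 lower, against 1.16% and 1.69% of all probe sets. That array was singled out by the values of the members, which belong to the same pathway. These counts, and the calls named next, are a description and not separate evidence. Genes that passed then, but not with all arrays, were the ATF6 relatives Creb3l1 (0.58, limma adjusted p = 0.008) and Creb3l4 (0.53, 0.0243), the secretory pathway genes Sec24d (0.32, 0.0434) and Srp19 (0.31, 0.0315), and the folding enzymes Pdia5 (0.39, 0.0253), Txndc5 (0.35, 0.0327) and Fkbp11 (0.54, 0.0243), while Phgdh and Ero1b no longer passed. Markers of goblet cells moved with Agr2, which is also on that list: 6 of 11 were higher past the threshold, against 1% of all probe sets. Their mean level lay from 10.61 to 11.01 in TUDCA mice and from 10.14 to 10.64 in vehicle mice. Enterocyte markers were lower in 4 of 12, against 1.52% of all probe sets. Their mean levels lay from 10.64 to 10.96 in TUDCA mice and from 10.88 to 11.18 in vehicle mice. T and NK cell markers were lower in 6 of 10, against the same 1.52%. Their mean levels lay from 5.83 to 7.27 in TUDCA mice and from 7.17 to 7.88 in vehicle mice. Of 11 plasma cell markers 1, Prdm1, was lower. Paneth, acinar, macrophage and smooth muscle markers had no member past the threshold. The part of these shifts in cell type markers in the 7 changes was not tested.

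**Figure D5:**
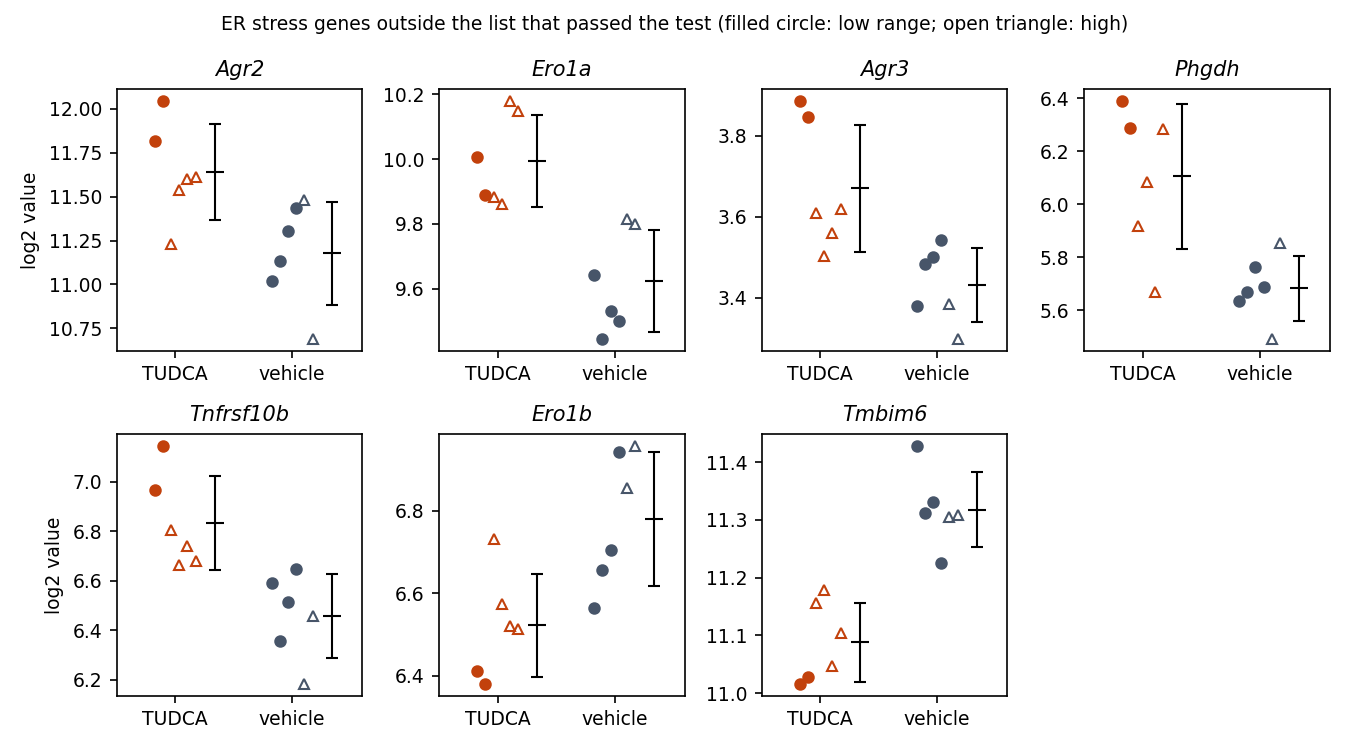
Log2 values on each array of the 7 further pathway genes that passed the test, TUDCA left of vehicle, with filled circles for the low number range, open triangles for the high number range and bars for mean ± SD of 6 arrays. Ero1a, Tnfrsf10b and Tmbim6 have groups that do not overlap, and Ero1a and Ero1b lie in opposite directions.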

How the data were processed

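Small intestine RNA was amplified, labelled with biotin and hybridised to 12 Affymetrix arrays, per the labels' protocols. The deposited values are log2 values that the authors made with RMA and the oligo package, per the submitters' processing notes, which give no versions. RMA brings the arrays to one distribution, so that a shift of all transcripts could not be seen. Array medians lay from 5.90 to 5.95. Scanner files and detection calls were not used here, and the number of arrays limits the precision.

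From these values, TUDCA minus vehicle was fitted to all 23991 probe sets by the lmFit and trended eBayes functions of limma 3.58.1 (R 4.3.3), with the number range (sample numbers 57 to 70 and 153 to 166) as a term, and two-sided p-values were adjusted by Benjamini-Hochberg over all probe sets, with a threshold of 0.05. The script was tested on simulated data with independent noise. Of 50 probe sets changed by 0.25 in log2 units 6% passed the threshold, of 50 changed by 0.5 70%, and of 50 changed by 1 96%. Changes of about 0.25 were therefore mostly missed, and a gene that did not pass may still differ by that much. Probe sets that named 1 gene were used for names (21557), not those that named several (787) or none (1647). The p-values take each array as 1 mouse, going by the sample numbers; the labels do not otherwise identify mice. The members, lists, tests and number ranges were chosen with earlier results of these data known. Full values are given for sensors and factors, Hspa5 and the 3 genes of each arm with the smallest p, and other pathway genes are named where they passed the threshold. Alternatives were fits without the number range, with the replicate number as a block, within each range, with a filter on dim probe sets, renewed normalisation, other variance options, a threshold of 0.1, and without each array in turn.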

Additional observations from a re-analysis of the deposited data

Results flagged for a closer look

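In groups of 6 arrays, the gap between an extreme array and its nearest neighbour was set against the range of the group (Dixon's criterion, critical value 0.625) in 92 groups, of which 5 passed. Chance passes about 1 in 20. Ddit3 was low on TUDCA replicate 4, at 6.79, against 7.17 to 7.30 on the other TUDCA arrays. Asns was high on TUDCA replicate 1, at 8.14, against 7.44 to 7.70 on the other TUDCA arrays. The mean of the IRE1 arm was high on TUDCA replicate 2, at 0.17, against -0.07 to 0.02 on the other TUDCA arrays. Hyou1 was high on vehicle replicate 5, at 9.78, against 9.27 to 9.45 on the other vehicle arrays. The mean of all 34 members was high on the same vehicle array, at 0.15, against -0.07 to 0.00 on the other vehicle arrays.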

How the results depend on the processing

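Among 25 alternatives, the count of members called was 0 in each except without vehicle replicate 5, where it was 2 higher, so that leaving out 1 array gave 0 to 2 higher, 0 lower and 0 in the interaction. In the low range alone, median differences were 0.167 for the IRE1 arm, 0.190 for the ATF6 arm, 0.032 for the shared targets and 0.143 for all members. In the high range alone they were -0.098 for the PERK arm and -0.104 for all members. With 1 array left out, medians lay from -0.031 to 0.028 (PERK arm), -0.094 to 0.046 (IRE1 arm), 0.015 to 0.158 (ATF6 arm), -0.072 to -0.013 (shared targets) and -0.025 to 0.070 (all members); the cause was not tested. Deviations from the group means, taken without the number range, correlated at -0.060 to 0.261 between same-numbered arrays. Differently numbered arrays were not compared, so whether the replicate numbers pair the samples was not settled. With the replicate block and the number range 0 members passed, with a median of 0.026 and a smallest limma adjusted p of 0.221. Of the 7 other pathway genes called, that block left Ero1a and Agr2 past the threshold (Tnfrsf10b adjusted p = 0.0711). Over all probe sets, 605 calls became 275 with that block, 9 in the high range alone, 242 and 296 without TUDCA replicates 1 and 2, 387 without vehicle replicate 6, 962 with array weights and 970 at an adjusted p of 0.1. Of 596 values for 24 named genes, 515 stayed on their side of the threshold (16 of these, not called, changed sign), 79 lost the call, 2 gained it (Hspa5 and Pdia6 without vehicle replicate 5), and no called gene changed direction. No detection calls were used here, so whether genes at low levels, such as Agr3, exceeded background is unknown.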
